A study of Mus musculus with 6 samples.

Results

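*Lifr* encodes the receptor of leukemia inhibitory factor (LIF). It was examined together with 9 genes of the gp130 cytokine pathway in brain RNA-seq libraries of *AP1AR-DT* overexpressing (AP1AR-DT OE) mice and control mice. The 10 genes are the receptor genes *Lifr*, *Il6st*, *Cntfr*, *Osmr* and *Il6ra*, the ligand genes *Lif* and *Cntf*, and the effector genes *Jak1*, *Stat3* and *Socs3*. They were taken by symbol from the 52390 genes of the count table, and each symbol matched 1 gene. Of these genes, 9 had counts and passed the filter on low counts and 1, *Cntf*, had none. *Lifr* was selected on its counts in these same libraries, which were higher in AP1AR-DT OE, so its difference is described without a test. The other genes were chosen for their place in the pathway, to see whether partners or targets of the receptor differed as well.

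Cytokines of the gp130 family act through receptors that share the subunit gp130, the product of *Il6st*. LIF binds LIFR, which pairs with gp130. Ciliary neurotrophic factor (CNTF) needs the same pair together with the CNTF receptor, and oncostatin M and interleukin-6 use gp130 with the products of *Osmr* and *Il6ra*. Receptor pairing activates JAK kinases such as JAK1, which phosphorylate the transcription factor STAT3. STAT3 induces *Socs3*, whose product inhibits the receptor and so closes a feedback loop. In the brain this pathway is known for its roles in the survival of neurons and in the response of astrocytes to injury.

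The 3 control mice and 3 AP1AR-DT OE mice were male C57BL/6 mice that received an adeno-associated virus in the medial prefrontal cortex at the age of 8 weeks. GEO's labels give the controls as wild type with an empty vector. The AP1AR-DT OE virus carried the human long non-coding RNA, labelled AC109347.1, under a neuronal promoter, that of human synapsin I. The labels give the tissue as brain, while the study's text names the medial prefrontal cortex, and in its methods cortical tissue, as the source. The RNA came from whole tissue, so fewer cells of a type and less RNA per cell cannot be told apart. Libraries held 42.06 to 54.67 M counts. Control libraries are numbered as the mice are, and AP1AR-DT OE libraries are called A, B and C because their columns do not name the mouse. Levels are normalized CPM, that is counts put on one scale for libraries of different totals, and Log2FC is the log2 fold change of AP1AR-DT OE over control. No human gene was counted, so the level of the transgene could not serve to check the labels. All 10 pan-neuronal markers were counted in every library, with a summed level of 5697 to 6521 CPM in controls and 6078 to 6743 in AP1AR-DT OE. The tissue in the libraries was not alike. Control 3 had a summed level of 10 choroid plexus markers of 4071 CPM against 59.1 to 80.9 in the other libraries. *Neurod2*, a marker of cortical excitatory neurons, had 5.38, 0.281 and 61.2 CPM in controls 1, 2 and 3 and 34.4, 56.8 and 0.896 in AP1AR-DT OE libraries A, B and C, so this marker of cortex was near 0 in control 2 and library C. *Slc17a7*, a transporter gene of the same neurons, was likewise lowest in control 2 at 3.86 CPM against 28.2 to 463 in the others. The summed level of 8 striatal neuron markers was highest in library A, at 2512 CPM against 382 to 1422. The part of these differences in the results was not tested.

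*Lifr* (ENSMUSG00000054263) lies on the plus strand of chr15:7090614-7197489 of GRCm38. Its level was 5.88, 6.87 and 6.47 CPM in controls 1, 2 and 3. It was 27.5, 26.4 and 30.2 CPM in AP1AR-DT OE libraries A, B and C. The lowest AP1AR-DT OE library thus lay well above the highest control, and neither group held a library that stood apart. The mean was 6.40 ± 0.499 (SD, n = 3) in controls and 28.0 ± 1.99 (SD, n = 3) in AP1AR-DT OE, a ratio of 4.38 and a Log2FC of 2.13. These values rest on 239 to 342 counts per control library and 1423 to 1587 counts per AP1AR-DT OE library. No other gene has a transcript that shares any 100-base stretch of the longest *Lifr* transcript, and no other annotated gene overlaps its span. The Log2FC was 2.07 without control 1, 2.19 without control 2 and 2.15 without control 3. It was 2.15 without library A, 2.17 without library B and 2.09 without library C. These values are descriptions and no check of the difference, since *Lifr* was selected on these same counts.

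The annotation gives *Lifr* 8 transcripts with several first exons. In order along the chromosome, 1 starts at position 7090614, 3 start between 7129559 and 7129572, 3 start between 7140542 and 7140549, and 1 starts at 7154353. The count is one value per gene, so it does not say which start or transcript carried the higher level. RefSeq's promoter table on GRCm38.p6 holds the regions upstream of the second and the third of these start regions. They are shown because they are the *Lifr* promoters the counts cannot separate. Each stretch runs 5′ to 3′ on the plus strand from 250 to 21 bases before the start, and lies at chr15:7129322-7129551 for the first and at chr15:7140292-7140521 for the second. Their GC content differs widely, 82.6% in the first and 49.1% in the second.
Lifr promoter 1: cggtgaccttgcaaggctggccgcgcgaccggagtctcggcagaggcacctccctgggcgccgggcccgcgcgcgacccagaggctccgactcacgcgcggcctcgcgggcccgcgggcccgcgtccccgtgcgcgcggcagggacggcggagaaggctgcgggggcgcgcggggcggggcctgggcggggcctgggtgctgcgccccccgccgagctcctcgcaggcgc
Lifr promoter 2: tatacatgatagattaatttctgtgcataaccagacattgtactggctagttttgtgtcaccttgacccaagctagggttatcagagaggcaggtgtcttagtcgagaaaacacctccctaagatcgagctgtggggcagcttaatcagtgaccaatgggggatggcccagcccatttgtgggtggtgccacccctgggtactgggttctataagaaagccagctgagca

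Promoters of all 10 genes, 16 windows of the 250 bases before a start, were searched on both strands for 2 motifs. One is the STAT motif TTCNNNGAA. The other is the motif of NRF1, a transcription factor that the study followed, which reads GCGCA, any base and GCGC. Neither occurs in a *Lifr* window, so no base is in capitals above. The STAT motif occurs in the *Socs3* window alone, starting 154 bases before the start, against 7.02% of all 32851 promoters of the table. The NRF1 motif occurs in none of the 16 windows, against 3.74% of all promoters. A match of letters is not evidence of binding, and a missing match says nothing of the factor. The *Socs3* stretch is on the minus strand at chr11:117969467-117969616 of GRCm38.p6, from 250 to 101 bases before the start, with the STAT motif in capitals.
Socs3 promoter: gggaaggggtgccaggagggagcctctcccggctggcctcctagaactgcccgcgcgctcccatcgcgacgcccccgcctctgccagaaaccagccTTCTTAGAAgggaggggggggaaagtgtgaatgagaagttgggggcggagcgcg

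**Figure D1:**
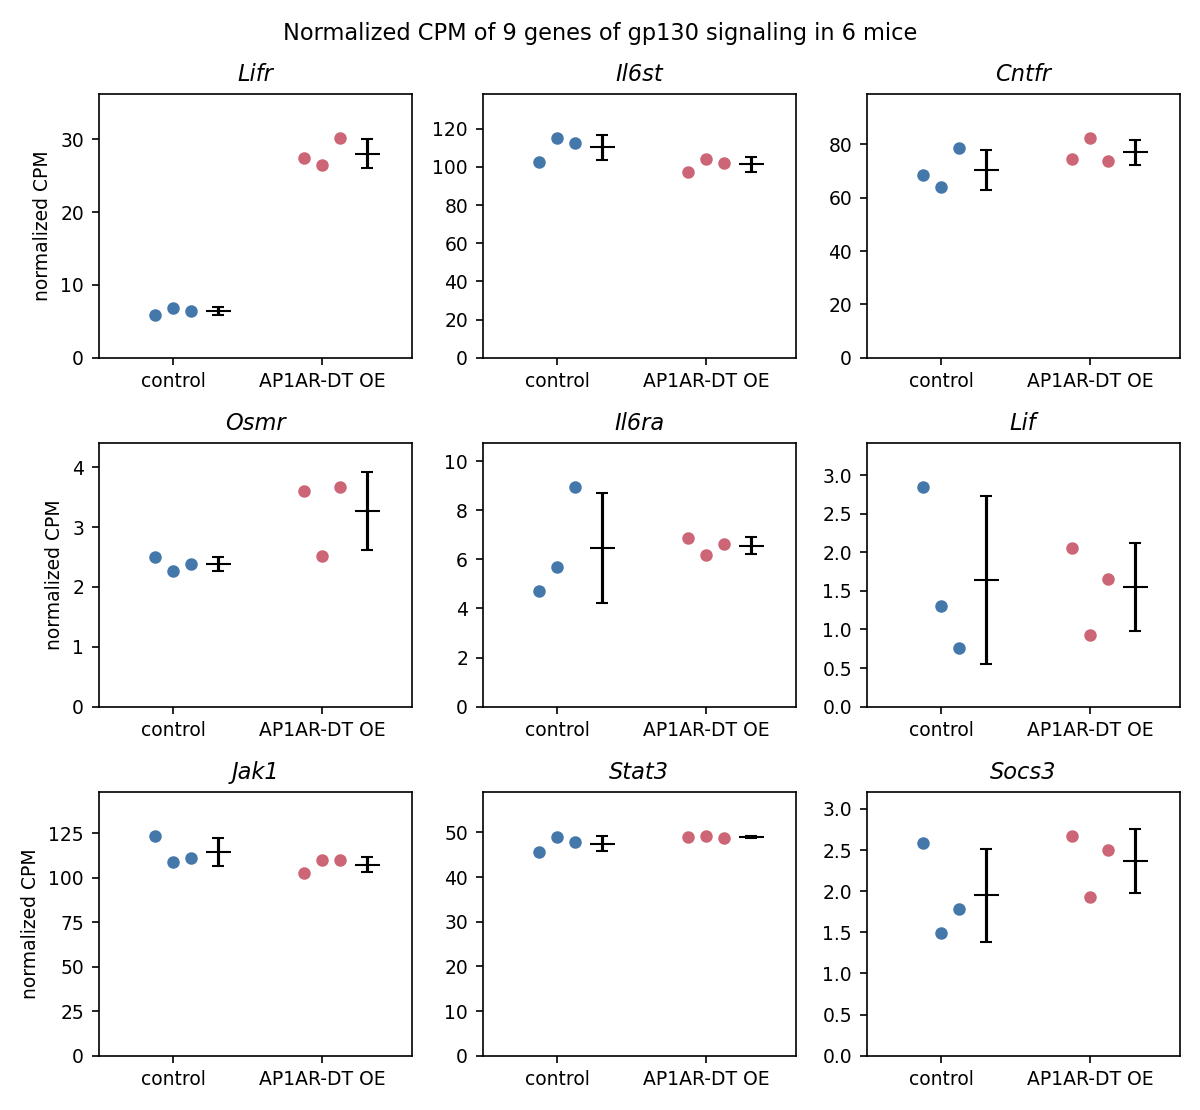
Normalized CPM (y axis, linear from 0, one scale per panel) of the 9 genes with counts in 3 control and 3 AP1AR-DT OE libraries. Points are libraries, horizontal lines are means and bars are SD (n = 3). *Lifr* libraries lie at 5.88 to 6.87 CPM in controls and at 26.4 to 30.2 in AP1AR-DT OE, and *Osmr* is the other panel whose groups do not overlap.

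Beside *Lifr*, 8 of the genes could be tested, and 0 passed the study's thresholds of *P* under 0.05 and |Log2FC| above 0.32 in edgeR's quasi-likelihood test. Over all 21844 genes tested, 5.1% passed with a higher and 7.15% with a lower level in AP1AR-DT OE. At unadjusted *P* under 0.05, whatever the Log2FC, the number was also 0 of 8, and DESeq2 called 0 of 8 as well. The groups of 1 of the 8 genes, *Osmr*, did not overlap and were higher in AP1AR-DT OE, against 10.4% of all genes tested that were higher without overlap and 12% that were lower. The count of 0 called was the same without control 1, control 2, control 3, library A or library C. Without library B, or after correction for GC content, 1 gene passed, *Osmr*. The median Log2FC of the 8 genes was 0.033, against -0.014 over all genes tested. The count called and the count without overlap in the main fit are near these shares.

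Among the receptor genes, *Il6st* encodes the shared subunit gp130 and lies on the plus strand of chr13:112464070-112510086. Its level was 103, 115 and 113 CPM in controls 1, 2 and 3 and 97.2, 104 and 102 CPM in AP1AR-DT OE libraries A, B and C. Libraries of both groups lay close together and overlapped, with control 1 inside the AP1AR-DT OE range. Its Log2FC was -0.12 (SE 0.0857) with a 95% interval from -0.33 to 0.08, or 0.798-fold to 1.06-fold (edgeR *P* = 0.191, adjusted *P* = 0.508, exact permutation *P* = 0.2). The permutation tests are two-sided, and 3 libraries against 3 cannot give less than 0.1.

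*Cntfr* encodes the binding subunit for CNTF, which is anchored to the membrane and has no signaling domain, and lies on the minus strand of chr4:41657498-41697089. It had 68.7, 64.1 and 78.6 CPM in the controls and 74.4, 82.6 and 74.0 in AP1AR-DT OE. Control 3 lay above 2 of the AP1AR-DT OE libraries, so the groups overlapped. Its Log2FC was 0.13 (SE 0.108) with an interval from -0.13 to 0.38 (edgeR *P* = 0.277, adjusted *P* = 0.593, exact permutation *P* = 0.3).

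*Osmr*, whose product pairs with gp130 to bind oncostatin M, lies on the minus strand of chr15:6813577-6874969. It was 2.51, 2.27 and 2.38 CPM in the controls and 3.60, 2.52 and 3.68 CPM in AP1AR-DT OE. Libraries A and C were higher than the controls, while library B lay just above control 1. The mean went from 2.39 ± 0.119 (SD, n = 3) to 3.27 ± 0.646 (SD, n = 3), a ratio of 1.37. Its Log2FC was 0.45 (SE 0.229) with an interval from -0.09 to 0.99 (edgeR *P* = 0.0872, adjusted *P* = 0.386, exact permutation *P* = 0.1). It passed the thresholds in 2 of 14 alternative fits, with a Log2FC of 0.55 after correction for GC content and 0.61 without AP1AR-DT OE library B. These levels rest on 102 to 193 counts per library.

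*Il6ra* encodes the binding subunit for interleukin-6 and lies on the minus strand of chr3:89864059-89913196. It had 4.72, 5.70 and 8.97 CPM in the controls and 6.86, 6.20 and 6.63 in AP1AR-DT OE. All AP1AR-DT OE values lay inside the control range, whose top was control 3, the library with the high choroid plexus markers. The part of that tissue in this value was not tested. The Log2FC of *Il6ra* was 0.021 with an interval from -0.57 to 0.61 (edgeR *P* = 0.935, adjusted *P* = 0.975, exact permutation *P* = 0.8), and 0.35 without control 3. Of its 100-base stretches, 1.67% are shared with the antisense gene *Gm42809*, which had at most 8 counts in a library.

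Of the ligand genes, *Lif* lies on the plus strand of chr11:4257557-4272514. It had 2.85, 1.31 and 0.761 CPM in the controls and 2.06, 0.928 and 1.66 in AP1AR-DT OE. Control 1 and control 3 were the highest and the lowest of all libraries, so the spread within controls was wider than that between groups. The Log2FC was -0.078, and its interval from -1.34 to 1.18 is the widest of the 8 (edgeR *P* = 0.888, adjusted *P* = 0.957, exact permutation *P* = 1.0). At 38 to 116 counts per library, a change of 2-fold in either direction lies inside this interval.

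*Cntf* lies on the minus strand of chr19:12763660-12765632 and had 0 counts in each of the 6 libraries. A read pair gave about 4 counts, so 0 counts allow up to 3 read pairs or about 12 counts, which is 0.223 to 0.295 CPM per library, for counting error only. This value has a further limit, since *Cntf* lies inside the span of *Zfp91* on the same strand and shares 76.9% of its 100-base stretches with *Zfp91* transcripts. The counts of *Zfp91* themselves differed between libraries without regard to group. They were 4114, 75 and 6344 in controls 1, 2 and 3 and 56, 4372 and 70 in AP1AR-DT OE libraries A, B and C. The table also lists *Gm44505* over the same span, a gene singled out after its values were seen, with 779 to 1609 counts in the controls and 898 to 1083 in AP1AR-DT OE. The 0 of *Cntf* thus cannot be read as an absence of its RNA, since reads there could have been given to other genes.

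Because *Zfp91* moved so far between libraries of one group, the spread of all genes was read in the same way, also after these values were seen. Of 14516 genes tested that reached 5 CPM in some library, 774 had a highest library at least 4-fold above the lowest. *Lifr* is one of 118 of these whose groups did not overlap, while in the other 656 the groups overlapped. The 4-fold spread was reached within the controls alone by 464 genes and within AP1AR-DT OE alone by 266. The libraries of *Lifr* differed by at most 1.17-fold within controls and 1.15-fold within AP1AR-DT OE. *Lifr* was selected on these same counts, so its place among the 118 and its small spread are descriptions and no check of its difference.

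Among the effectors, *Jak1*, a kinase bound to gp130 receptors, lies on the minus strand of chr4:101152367-101265282. It was 124, 108.8 and 111 CPM in the controls and 103, 109.8 and 109.8 CPM in AP1AR-DT OE. Control 1 was the highest and library A the lowest, and the rest lay together. The Log2FC was -0.093 with an interval from -0.30 to 0.12 (edgeR *P* = 0.324, adjusted *P* = 0.630, exact permutation *P* = 0.3).

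*Stat3*, the main transcription factor of the pathway, lies on the minus strand of chr11:100885098-100939540. It had 45.6, 49.1 and 47.8 CPM in the controls and 49.0, 49.3 and 48.7 in AP1AR-DT OE. These were the closest values of the 8 genes, and control 2 lay inside the AP1AR-DT OE range. The Log2FC was 0.045 with an interval from -0.15 to 0.24 (edgeR *P* = 0.611, adjusted *P* = 0.827, exact permutation *P* = 0.3). The level of this RNA says nothing of the phosphorylation of its protein, which was not measured. *Jak1* and *Stat3* overlap *Raver2* and *Stat5a* at one end on the opposite strand, and whether the counting used strand is not stated.

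*Socs3*, the feedback inhibitor and a usual readout of active STAT3, lies on the minus strand of chr11:117966079-117970047. It had 2.58, 1.49 and 1.78 CPM in the controls and 2.68, 1.93 and 2.50 in AP1AR-DT OE. Control 1 lay above 2 of the AP1AR-DT OE libraries. The Log2FC was 0.28 with an interval from -0.41 to 0.97 (edgeR *P* = 0.365, adjusted *P* = 0.664, exact permutation *P* = 0.3), and it was 0.079 after correction for GC content.

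**Figure D2:**
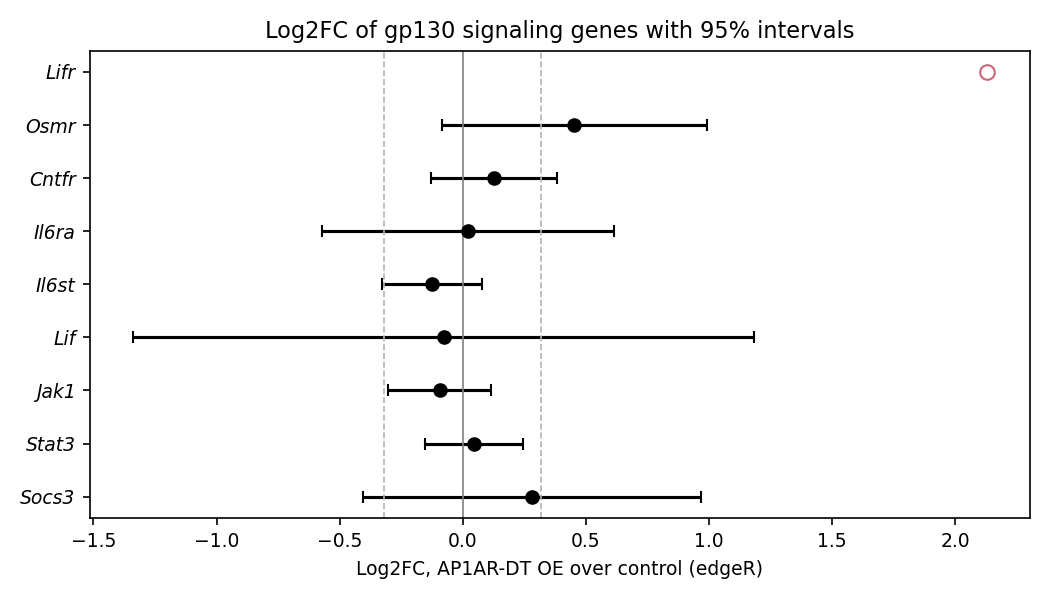
Log2FC of AP1AR-DT OE over control (x axis) for each gene (y axis). Filled points are edgeR's estimates with 95% intervals, the open point is *Lifr* without an interval because it was chosen for this difference, and dashed lines are the thresholds of 0.32. All 8 intervals cover 0, and *Lif* has the widest.

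Levels of different genes were compared as CPM per kilobase of the longest annotated transcript. In controls *Cntfr* was highest at 35.3 ± 3.72, followed by *Jak1* at 23.4 ± 1.63, *Il6st* at 12.7 ± 0.765 and *Stat3* at 7.86 ± 0.289 (SD, n = 3 each), and no 2 of these overlapped. *Socs3* at 0.764 ± 0.222, *Il6ra* at 0.748 ± 0.258 and *Lifr* at 0.663 ± 0.0517 followed with overlapping libraries. *Osmr* at 0.435 ± 0.0217 lay below each *Lifr* value, and *Lif* at 0.407 ± 0.269 overlapped both. In AP1AR-DT OE, *Lifr* reached 2.90 ± 0.206, above each library of *Socs3* and below each library of *Stat3*. It thus went from rank 7 to rank 5 of the 10 genes on this scale. With the mean length of all transcripts in place of the longest, *Lifr* had rank 5 in both groups and *Jak1* stood above *Cntfr*.

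The level of *Lifr* per length was also set against that of *Il6st*, its signaling partner. The ratio was 0.0514, 0.0535 and 0.0516 in controls 1, 2 and 3 and 0.254, 0.227 and 0.266 in AP1AR-DT OE libraries A, B and C. The log2 difference of 2.25 follows from the choice of *Lifr* and is not tested. *Lifr* remained the less abundant RNA of the pair in every library on this scale. The same ratio of *Cntfr* to *Il6st* was 2.79 ± 0.327 in controls and 3.31 ± 0.148 in AP1AR-DT OE (SD, n = 3) without overlap (exact permutation *P* = 0.1, the smallest possible). After correction for GC content, the Log2FC was -0.108 for *Cntfr* and -0.065 for *Il6st*, so *Cntfr* no longer rose against *Il6st*. The ratios of *Osmr* and *Il6ra* to *Il6st* overlapped (exact permutation *P* = 0.2 and 0.5).

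**Figure D3:**
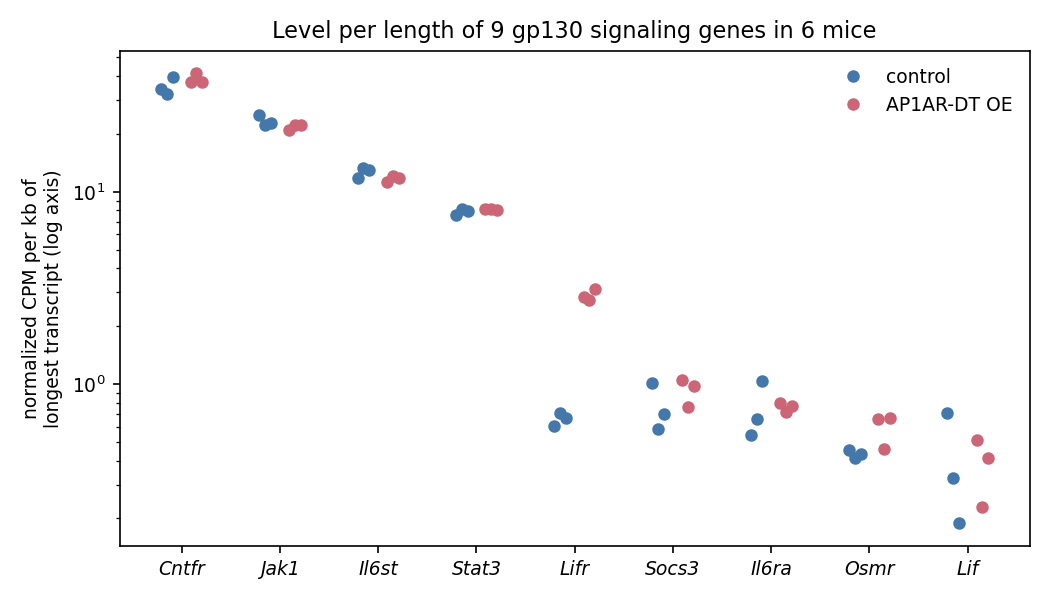
Normalized CPM per kilobase of the longest transcript (log axis) for 9 genes, ordered by their mean over all libraries, with 1 point per library and the groups side by side. *Lifr* lies at 0.663 in controls, among *Socs3* and *Il6ra*, and at 2.90 in AP1AR-DT OE, between *Stat3* and *Socs3*.

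*Lifr* has *Osmr* as a neighbor on chromosome 15, with 215.6 kb between the spans. Within 500 kb of *Lifr*, 5 other genes were tested and 0 passed the thresholds, against 5.1% higher and 7.15% lower of all genes tested. *Egflam*, which encodes a protein of the extracellular matrix and lies nearest at 8.63 kb, had 1.52 ± 0.368 CPM in controls and 1.61 ± 0.386 in AP1AR-DT OE (SD, n = 3), a Log2FC of 0.083. *Rictor*, a subunit of the mTORC2 kinase complex, had a Log2FC of -0.29 and overlapping groups. The Log2FC was -0.014 for *Fyb*, an adaptor gene of immune cells, and 0.16 for *Gm7666*. *Lifr* was the only gene tested in this window with a large difference, but the window was centered on it because of that difference.

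**Figure D4:**
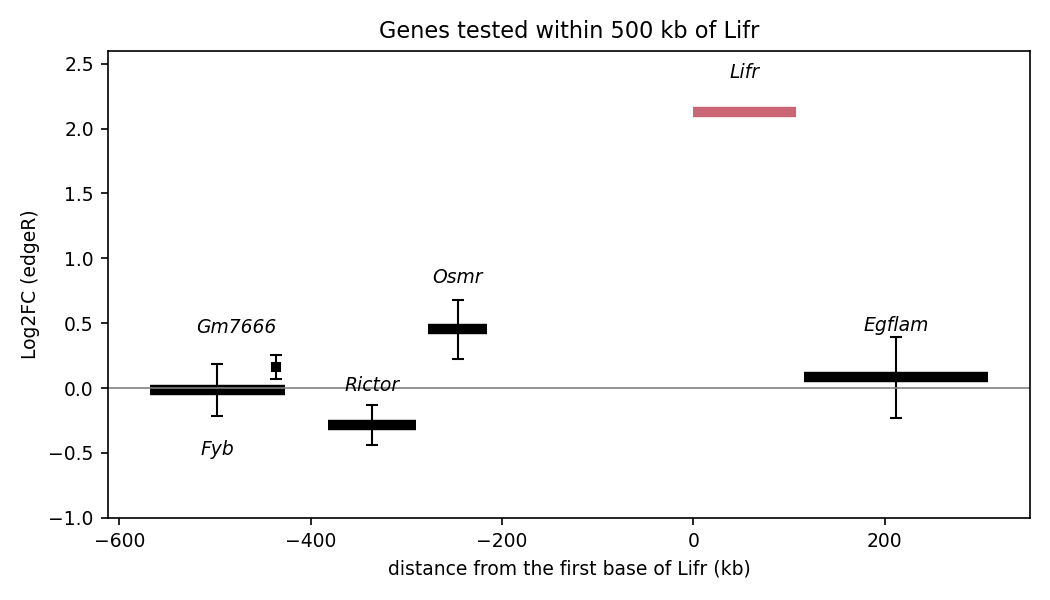
Log2FC of AP1AR-DT OE over control (y axis) for the genes tested within 500 kb of *Lifr*, against the distance of their span from the first base of *Lifr* in kb (x axis). Black bars are gene spans with ± 1 standard error, and the colored bar is *Lifr* at 2.13. The other genes lie between -0.29 and 0.45.

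The wider pathway was read from lists of 101 genes by role, of which 91 were tested. Of these, 6 passed the thresholds with a higher and 5 with a lower level in AP1AR-DT OE, and the median Log2FC was 0.083. Against 5.1% and 7.15% of all genes tested, both counts are near the background. The groups of 8 of the 91 were higher and of 8 lower without overlap, against 10.4% and 12% of all genes tested. The counts of the single lists below are to be read beside these same shares. The adjusted *P* of the 11 genes over all genes tested lay between 0.295 and 0.329. After correction for GC content, 4 genes of these lists passed, and 3 of them, *Gab1*, *Bcl2* and *Cdkn1a*, were among the 11.

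None of the other gp130 ligand genes passed, with 4 of 8 tested. *Clcf1*, a ligand of the CNTF receptor, had 0.904 ± 0.128 CPM in controls and 1.12 ± 0.164 in AP1AR-DT OE (SD, n = 3), with overlapping groups. *Il27* had 0 counts in every library, and *Il6*, *Osm* and *Ctf2* were below the filter. Of the other gp130 receptors, *Il11ra1*, which binds interleukin-11, was 9.37, 14.1 and 11.6 CPM in controls and 15.2, 14.4 and 15.5 CPM in AP1AR-DT OE. Its groups did not overlap, and the Log2FC of 0.36 did not pass (edgeR adjusted *P* = 0.361). *Il27ra* was lower without overlap, at 0.369, 0.442 and 0.400 CPM in controls and 0.302, 0.297 and 0.343 in AP1AR-DT OE. Its Log2FC of -0.36 was also not called (edgeR adjusted *P* = 0.737), and it rests on 15 to 22 counts per library.

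Among 17 class I cytokine receptor genes tested outside the gp130 group, 1 was called higher and 0 lower, and their median Log2FC was 0.23. *Epor*, the erythropoietin receptor gene, was 3.86, 2.03 and 2.66 CPM in controls and 5.75, 6.27 and 3.89 CPM in AP1AR-DT OE. Library C lay barely above control 1. Its Log2FC was 0.90 (edgeR adjusted *P* = 0.295), and after correction for GC content it was 0.66 and not called. In the 2 genes of this list with large negative values, control 3 was the highest library. *Prlr*, the prolactin receptor and a choroid plexus marker, had 1.38, 7.25 and 54.8 CPM in controls and 2.61 to 5.94 in AP1AR-DT OE. *Lepr*, the leptin receptor, had 0.369, 1.39 and 8.41 CPM in controls and 0.471 to 0.972 in AP1AR-DT OE, and neither passed.

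No other kinase or STAT gene passed, with 8 of 9 tested and a median Log2FC of 0.041. *Stat2*, a factor of interferon signaling, had a Log2FC of 0.36 and groups that did not overlap (edgeR adjusted *P* = 0.349). *Jak2* had 24.7 ± 1.98 CPM in controls and 20.9 ± 2.28 in AP1AR-DT OE (SD, n = 3) and was not called.

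Of 16 inhibitors, 2 were called higher and 1 lower. *Pias4*, a SUMO ligase that restrains STATs, went from 19.1 ± 1.88 to 25.9 ± 2.15 CPM (SD, n = 3) with a Log2FC of 0.44 (edgeR adjusted *P* = 0.295). *Ptpn1*, which encodes a phosphatase of JAK kinases, had a Log2FC of 0.33 with overlapping groups (edgeR adjusted *P* = 0.329). *Socs4*, a relative of *Socs3* linked to other receptors, was 22.7, 22.7 and 21.1 CPM in controls and 16.9, 17.0 and 17.1 CPM in AP1AR-DT OE. Each of its AP1AR-DT OE libraries lay below each control, with a Log2FC of -0.38 (edgeR adjusted *P* = 0.295). After correction for GC content, none of these 3 passed and *Socs4* was at -0.070.

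The MAPK and PI3K arm, by which gp130 signals beside STAT3, held 2 genes called higher and 2 lower among 19 tested, with a median Log2FC of 0.005. *Akt1*, a kinase downstream of PI3K, had 129 ± 5.21 CPM in controls and 165 ± 18.4 in AP1AR-DT OE (SD, n = 3), and *Hras* had a Log2FC of 0.47. *Gab1*, a docking protein that links gp130 to PI3K, was 51.5, 58.9 and 68.0 CPM in controls and 43.0, 46.7 and 50.2 CPM in AP1AR-DT OE. Its groups did not overlap, with a Log2FC of -0.35 (edgeR adjusted *P* = 0.300) and of -0.43 after correction for GC content. *Pik3ca*, a catalytic subunit of PI3K, had a Log2FC of -0.34.

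Of 20 STAT3 target genes tested, 1 was called higher and 2 lower, and the median Log2FC was -0.015. *Cdkn1a*, which encodes the cell cycle inhibitor p21 and is also a target of p53, was 4.87, 2.29 and 3.80 CPM in controls and 17.1, 5.79 and 6.61 CPM in AP1AR-DT OE. Library A stood far above the other AP1AR-DT OE libraries, and the Log2FC was 1.43 (edgeR adjusted *P* = 0.295). *Bcl2*, which protects cells from apoptosis, had 30.0 ± 1.44 CPM in controls and 22.5 ± 3.77 in AP1AR-DT OE (SD, n = 3), a Log2FC of -0.42. *Hif1a*, a factor of the response to low oxygen, had a Log2FC of -0.40, and of -0.16 after correction for GC content. The astrocyte genes that STAT3 is known to induce, *Gfap*, *Vim* and *Serpina3n*, had Log2FC of -0.089, -0.096 and -0.024. *Gfap* was 204.6, 188.5 and 402.2 CPM in controls and 296.8, 257.8 and 193.2 CPM in AP1AR-DT OE. Its Log2FC had an interval from -0.82 to 0.64. Control 3 was the highest library for *Gfap* and for *Vim*, at 59.2 CPM, but not for *Serpina3n*. The part of the tissue of control 3 in these values was not tested. *Lcn2* had 0 counts in every library.

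The last list held 4 neuropeptide genes and *Chat*, which LIF and CNTF are known to induce in cultured neurons, and 0 of 5 passed. *Sst*, *Tac1* and *Chat* had positive and *Vip* and *Gal* negative Log2FC, from -2.14 to 0.99. *Gal* had 6.52 ± 8.61 CPM in controls and 1.48 ± 1.12 in AP1AR-DT OE (SD, n = 3), so its libraries within a group differed more than the groups. Striatal neuron markers, which include cells that express *Tac1*, ranged from 382 to 1422 CPM in sum in controls and from 882 to 2512 in AP1AR-DT OE, and their part in this list was not tested.

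**Figure D5:**
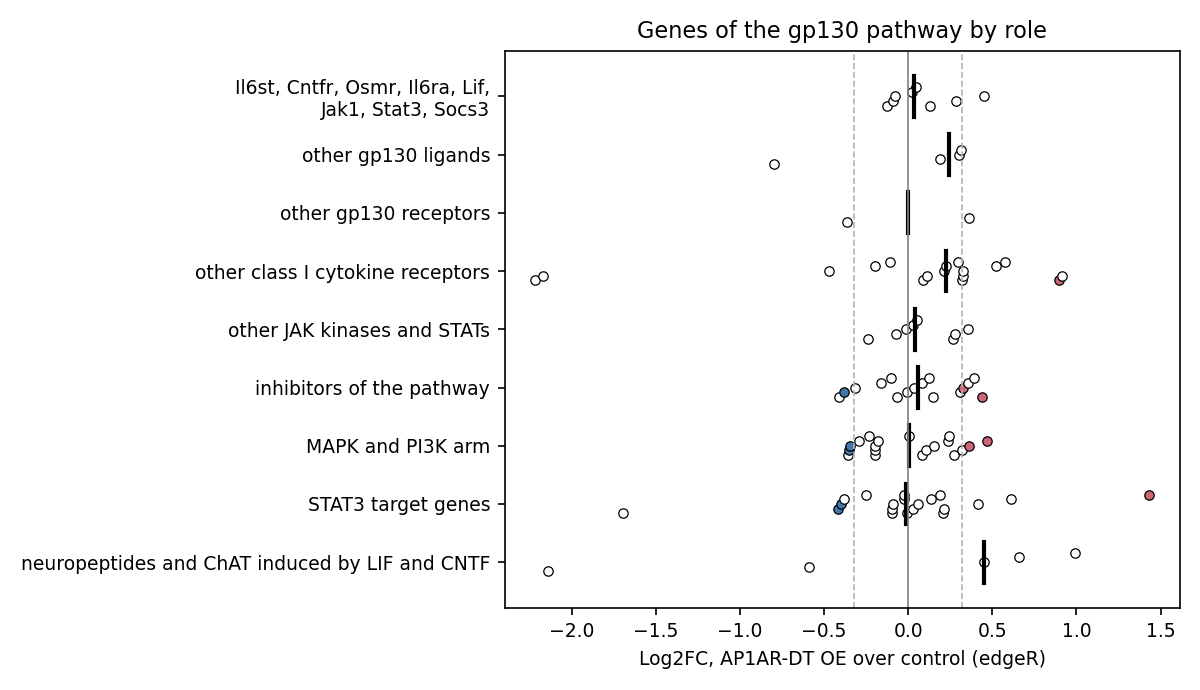
Log2FC of AP1AR-DT OE over control (x axis) for the tested genes of each list (rows), 1 point per gene. Red points were called higher, blue points lower and open points not called, thick bars are list medians and dashed lines are the thresholds of 0.32. Called genes number 6 higher and 5 lower of 91 below the top row, where 0 of 8 were called.

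Markers of cell types were read beside *Lifr*. The summed level of 10 endothelial markers was 102 to 118 CPM in controls and 119 to 163.5 in AP1AR-DT OE, and that of 8 pericyte and smooth muscle markers was 82.2 to 90.3 and 95.6 to 118. Both were higher in AP1AR-DT OE without overlap, and no gene of either list was at 0 in a library. The endothelial margin was narrow, 118.1 CPM in control 3 against 119.1 in library C. By single genes, 2 of 10 endothelial markers, *Cldn5* and *Ly6c1*, and 0 of 8 pericyte and smooth muscle markers were higher without overlap. This compares with 10.4% of all genes tested. Of these lists, 2 of 10 and 1 of 8 genes were called higher and 0 lower, against 5.1% and 7.15% of all genes tested. The summed level of 10 astrocyte markers was 5154 to 6222 CPM in controls and 5087 to 5319 in AP1AR-DT OE, and that of 10 microglia markers was 368 to 450.4 and 397 to 559.5, both with overlap. Of the astrocyte markers, *Aqp4* and *Sox9* were called lower and 0 higher, and of the microglia markers, *Tmem119*, *C1qa*, *C1qb* and *C1qc* were called higher and 0 lower. After correction for GC content, *Sox9* still passed, at a Log2FC of -0.43, as did *Cldn5* at 0.51 and *Ly6c1* at 0.56. *Aqp4*, these microglia genes and *Vtn*, the pericyte and smooth muscle marker called higher, did not. *P2ry12*, another microglia marker, was lower in AP1AR-DT OE without overlap and was not called. The 10 oligodendrocyte markers had 5437, 6957 and 11510 CPM in sum in controls 1, 2 and 3 and 5488 to 5588 in AP1AR-DT OE. Of these markers, 3 were called lower and 0 higher. The 6 ependymal markers had 56.66 to 103.8 CPM in controls and 32.45 to 63.65 in AP1AR-DT OE, with 2 called lower and 0 higher. Sums of inhibitory neuron, oligodendrocyte precursor, and fibroblast and meningeal markers overlapped between groups, with 0 genes called. The 10 excitatory neuron markers had 1420 to 2606 and 2017 to 3529 CPM, with 1 called higher and 1 lower. Mitochondrial genes took 7.20% to 9.86% of counts in controls and 5.75% to 6.80% in AP1AR-DT OE, so this share also differed without overlap. The part of these lists in the level of *Lifr* was not tested.

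The 5 protein-coding genes whose levels over the 6 libraries were most like those of *Lifr*, of 14949 compared, were *Nr6a1*, *Armcx6*, *Faap20*, *Zfp691* and *Klhl25*. Their Pearson correlations with *Lifr* in log2 CPM were 0.997, 0.993, 0.992, 0.988 and 0.980. These are descriptions over 6 libraries in 2 groups, since any gene with a clear step between the groups scores high. The sizes of the steps differed, with Log2FC of 0.41 for *Nr6a1*, 4.01 for *Armcx6*, 0.94 for *Faap20*, 0.49 for *Zfp691* and 0.41 for *Klhl25*. None of them belongs to the gp130 pathway lists.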

How the data were processed

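RNA-seq libraries of 3 control and 3 AP1AR-DT OE mice were analysed. Per the study's methods, the authors mapped 150-base paired reads to GRCm38 with Bowtie2, which does not split reads at introns, and ran StringTie with the GENCODE annotation. StringTie's script turned coverage into the whole-number counts that the authors deposited without normalization. It assumes 75-base reads by default, and low counts were most frequent at 4, so 1 count is not 1 read pair. The submitters' processing notes name other tools (TopHat2 2.0.4, SAMtools, HTSeq, Cuffdiff, edgeR 2.6.12) and mm9. The deposited table also holds the authors' mean normalized counts, log2 fold changes, standard errors, test statistics and P-values, which were not used.

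Groups came from the labels, which give each library as a separate mouse. Genes were tested in R 4.3.3 with edgeR 4.0.16 (TMM factors, filterByExpr, two-sided quasi-likelihood F-test), and P was adjusted by Benjamini-Hochberg over 21844 of 52390 genes. Calls needed |Log2FC| above 0.32 and P under 0.05, the study's thresholds. Exact permutation tests used log2 CPM. Alternatives were DESeq2 1.42.0, RLE factors, library totals, no filter, at least 10 counts in every library, GC and length correction (splines with 5 degrees of freedom), counts divided by 4, and leaving out each library. Coordinates are from GENCODE vM21 on GRCm38, since the positions in the table are not of that build, and promoters from RefSeq on GRCm38.p6. Python 3.11.15, pandas 2.3.3, scipy 1.17.1 and matplotlib 3.10.9 were used.

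The genes and lists were chosen with earlier results of these data known. Named genes were the 10 genes, the genes called in each list (at most 4), the genes within 500 kb of *Lifr*, those overlapping the 10, and the 5 most like *Lifr*. Others were chosen after their values were seen.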

Additional observations from a re-analysis of the deposited data

How the results depend on the processing

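Over 14 alternative fits, the count of genes called moved from 2675 (1113 higher, 1562 lower) to 1569 (622 higher, 947 lower) after correction for GC content. It lay between 1430 and 3508 (594 to 1623 higher, 836 to 1950 lower) when 1 library was left out, with the lowest counts without AP1AR-DT OE library B and 1620 without library A. Of the 8 genes tested beside *Lifr*, 1 (*Osmr*) was called after correction for GC content, and 0 to 1 with a library left out (1 without library B). Called genes of the wider lists went from 11 to 4 after correction for GC content and to between 4 and 24 with a library left out, at 24 without control 1, 20 without library C, 5 without library A and 4 without library B. The Log2FC of *Lifr* moved from 2.13 to 2.28 and 2.27 after correction for GC content and for transcript length, and to between 2.07 and 2.19 with a library left out. Its ratio to *Il6st* moved from 2.25 to 2.35 on the log2 scale after correction for GC content, and to between 2.21 and 2.32 with a library left out. Uncalled Log2FC changed sign for *Il6st* (0.010, length correction), *Cntfr* (-0.108), *Il6ra* (-0.015) and *Stat3* (-0.044, each GC correction), and ranged with a library left out from -0.159 to 0.345 for *Il6ra* and from -0.408 to 0.582 for *Lif*. The other fits kept the direction and the call of each of the 9 genes, and the cause of these changes was not tested. No paired analysis was possible because the labels share only 1 mouse number between the groups and the AP1AR-DT OE columns carry no mouse number. Of the 8 genes, *Lif* had the widest interval and the fewest counts in a library, 38.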
